A study of Homo sapiens with 4 samples.

Results

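The 6 genes of the oxygen-sensing system described here were examined in ChIP-seq peak lists of DU145 cells, a human prostate cancer line in long use: the hypoxia-inducible factor (HIF) subunit genes HIF1A, EPAS1 and ARNT, and the oxygen sensor genes EGLN1, EGLN3 and HIF1AN. They were chosen by name, 6 of 19974 annotated protein-coding genes on chromosomes 1 to 22 and X, and all 6 were found in the annotation. Peaks were taken as belonging to a gene's surroundings when their midpoint lay inside the gene or within 50 kb of it. The libraries were an ATOH8 Flag ChIP with its ATOH8 Flag input and a TCF3 Myc ChIP with its TCF3 Myc input, 1 library each, from cells fixed in formaldehyde. No treatment, time or oxygen level is given in the sources used here.

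ATOH8 and TCF3 are basic helix-loop-helix (bHLH) factors, a class that binds short DNA words called E-boxes, and TCF3 is an E protein, a common dimer partner within the class. HIF is itself built from bHLH proteins: an alpha subunit, encoded by HIF1A or EPAS1, pairs with the stable beta subunit encoded by ARNT and binds hypoxia response elements. When oxygen is present, prolyl hydroxylases such as those encoded by EGLN1 and EGLN3 mark the alpha subunit for recognition by the VHL ubiquitin ligase and destruction. HIF1AN encodes an asparaginyl hydroxylase that blocks the alpha subunit from recruiting coactivators. Hypoxic solid tumours, prostate cancer among them, are a setting in which this system is much studied.

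The ATOH8 list held 4997 peaks with a median score of 84, and the TCF3 list held 11390 with a median of 61. The score is the authors' own value and was ranked only within its list. Listed scores jumped between 996 and 356, between 326 and 280 and between 232 and 189 in the ATOH8 list, and between 887 and 280 in the TCF3 list. Whether peaks with scores inside these gaps exist is not known here. A gene without a listed peak was therefore not taken as unbound, and ranks are places among the listed peaks. With 1 library per factor there is no replicate check, no value has an error, and no test was made. Read depth is unknown, and expression was not measured.

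At 5 of the 6 genes, all but HIF1AN, an ATOH8 peak lay within 1 kb of the annotated start, with its midpoint 39.5 to 388 bp away. The share of all protein-coding genes with an ATOH8 peak within 1 kb of the start was 17.3%, over the 15813 genes whose strand the reference gave. A TCF3 peak lay within 1 kb of the start at 1 of the 6 genes, HIF1A, where 18.6% of all such genes had one. Thus 4 genes had an ATOH8 and no TCF3 peak at the start (11.6% of all genes), HIF1A had both (5.65%), and HIF1AN had neither (69.8%). The lists as wholes also differed in this respect. Of all ATOH8 peaks on chromosomes 1 to 22 and X, 49.9% lay within 1 kb of a protein-coding gene start, and of all TCF3 peaks 24.4% did. The count of 6 genes is small, and the genes were picked with the ATOH8 peaks at HIF1A, EPAS1 and EGLN3 already known.

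The stretches of reference sequence just before the starts of HIF1A, EPAS1, ARNT and EGLN1 are shown because each lay wholly inside the ATOH8 peak of its gene. They are the 250 bases before the annotated start, 5′ to 3′ on the gene's strand, from RefSeq on GRCh38.p14, at chr14:61695263-61695512 (plus strand), chr2:46297157-46297406 (plus strand), chr1:150876600-150876849 (minus strand) and chr1:231422288-231422537 (minus strand). Capitals mark E-boxes (CANNTG) and the core words of a hypoxia response element (ACGTG or GCGTG, or their complements CACGT and CACGC).
HIF1A: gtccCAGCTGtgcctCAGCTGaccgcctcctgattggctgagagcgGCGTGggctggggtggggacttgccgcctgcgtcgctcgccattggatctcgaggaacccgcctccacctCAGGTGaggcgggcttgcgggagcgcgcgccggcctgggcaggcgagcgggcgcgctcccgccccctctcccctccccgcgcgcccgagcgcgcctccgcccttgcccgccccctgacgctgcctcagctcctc
EPAS1: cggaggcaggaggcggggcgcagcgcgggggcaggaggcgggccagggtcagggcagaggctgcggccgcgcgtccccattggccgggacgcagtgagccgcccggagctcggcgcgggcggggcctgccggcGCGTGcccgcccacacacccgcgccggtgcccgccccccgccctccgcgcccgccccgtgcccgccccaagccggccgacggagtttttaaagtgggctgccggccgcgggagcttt
ARNT: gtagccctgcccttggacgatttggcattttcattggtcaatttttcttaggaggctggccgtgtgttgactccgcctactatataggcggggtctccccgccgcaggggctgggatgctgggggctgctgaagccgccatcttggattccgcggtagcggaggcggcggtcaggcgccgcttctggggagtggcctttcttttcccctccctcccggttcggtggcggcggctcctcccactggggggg
EGLN1: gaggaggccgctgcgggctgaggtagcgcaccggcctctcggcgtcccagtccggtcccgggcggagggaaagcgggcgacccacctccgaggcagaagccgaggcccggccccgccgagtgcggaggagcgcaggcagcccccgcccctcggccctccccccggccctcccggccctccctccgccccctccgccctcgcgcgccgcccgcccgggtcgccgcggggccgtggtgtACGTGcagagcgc
Only the HIF1A stretch among these 4 held E-boxes.

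The HIF1A stretch held 3 CANNTG words: a pair of CAGCTG words, whose first bases lay 246 and 235 bases before the start, and a CAGGTG word 134 bases before it. Of all 22140 such stretches before protein-coding gene starts, alternative starts included, 58.1% held at least 1 CANNTG word. CAGCTG occurred in 13.7% of all stretches and CACCTG or its complement CAGGTG in 17.1%. None of the 6 genes had CAGATG or its complement CATCTG (10.2% of all stretches), CATATG (1.78%) or CACGTG (7.37%) there, the last of which also contains ACGTG and CACGT.

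A hypoxia core word of either kind was present in 3 of the 6 stretches, close to the 49.3% of all stretches that held one. EGLN1, itself a gene known to be induced by HIF, had ACGTG with its first base 13 bases before the start, a word that occurred on either strand in 20.2% of all stretches. GCGTG, with CACGC present in 38.2% of all stretches, stood 204 bases before the start of HIF1A and 117 bases before that of EPAS1. The stretches of ARNT, EGLN3 and HIF1AN held none of the words searched. The stretches of EGLN3 and HIF1AN lay in no listed peak, so the lack of words there says nothing about peak sequence. Those of HIF1A, EPAS1, ARNT and EGLN1 cover part of a peak only, so these matches do not describe the whole peak.

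Base composition differed among the 6 genes. The stretches of EGLN1 (81.2% G and C), EPAS1 (80.8%) and HIF1A (75.6%) were richer in G and C than 97.0%, 96.6% and 88.0% of all stretches, whose median was 62.0%. ARNT (64.4%) and EGLN3 (64.0%) were close to the median, and HIF1AN, the gene without a listed peak, was lowest at 54.4%. CpG pairs, the sites of DNA methylation, numbered 38 before EPAS1, 36 before EGLN1, 29 before HIF1A, 23 before EGLN3, 18 before ARNT and 13 before HIF1AN, where the median was 16. The 1562 stretches that lay wholly inside an ATOH8 peak had a median of 73.2% G and C, and the 1486 inside a TCF3 peak one of 74.0%, so composition moved with the presence of a peak across both whole lists, and its part in the pattern at these genes was not tested.

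**Figure D1:**
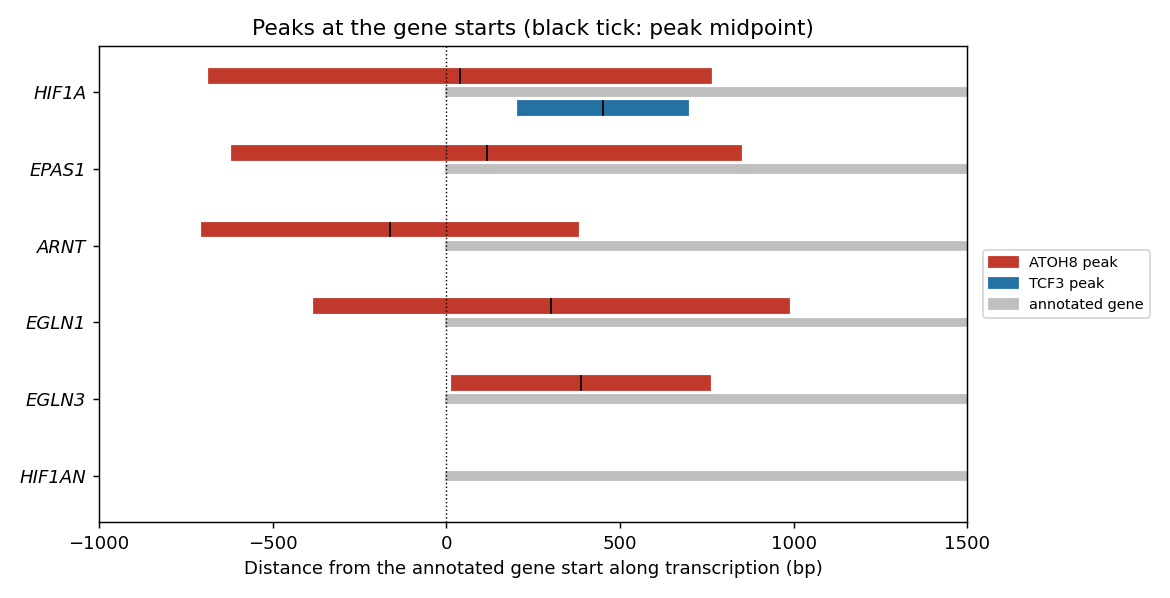
Extent of ATOH8 peaks (red) and TCF3 peaks (blue) around the annotated start of each gene, in bp along the direction of transcription, with the peak midpoint as a black tick and the gene in grey. ATOH8 peaks cover the start of 4 genes, the EGLN3 peak begins 17 bp inside the gene, and the only TCF3 peak in view lies within the ATOH8 peak of HIF1A.

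HIF1A, the gene of the broadly expressed alpha subunit (chromosome 14, 61695513 to 61748258, hg38), had the most listed peaks. Its first ATOH8 peak ran from 61694831 to 61696274 with a score of 159, rank 539, above 88.8% of the ATOH8 list. This peak covered the start of HIF1A, and also that of HIF1A-AS1, a long non-coding RNA gene on the opposite strand. A TCF3 peak from 61695720 to 61696210 lay wholly inside it, sharing 490 bp, which is 34.0% of the ATOH8 peak and 100% of the TCF3 peak.

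The 2 peaks of this pair stood at different places in their lists. The TCF3 peak had a score of 44 and rank 8210 of 11390, above only 17.8% of TCF3 peaks. Its near edge lay 207 bp inside HIF1A, so it did not cover the HIF1A start, whereas it did cover the start of HIF1A-AS1, with its midpoint 142 bp upstream of that start. The midpoints of the pair were 412.5 bp apart.

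A second ATOH8 peak at HIF1A lay past the other end of the gene. It ran from 61751056 to 61751412 with a score of 111, above 70.2% of the list, and its midpoint was 2976 bp beyond the gene. It was narrow, at 356 bp against a list median of 709 bp, and it covered the start of HIF1A-AS3, a further antisense non-coding RNA gene. The first ATOH8 peak and the TCF3 peak covered the same antisense start, that of HIF1A-AS1. The share of all listed peaks that cover a non-coding gene start was not counted.

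EPAS1 encodes the alpha subunit known for its role in endothelial cells and in erythropoietin control (chromosome 2, 46297407 to 46386697). Its ATOH8 peak, from 46296791 to 46298255, covered the start with a midpoint 116 bp inside the gene. The score was 137, rank 866, above 82.3% of ATOH8 peaks, and no TCF3 peak shared a base with it. The TCF3 peak of this region, from 46428769 to 46429272, lay 42323.5 bp beyond the far end of EPAS1 with a score of 120, above 85.6% of TCF3 peaks. It covered the start of LINC02583, a long non-coding RNA gene, although EPAS1 was the nearest protein-coding gene.

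ARNT encodes the beta subunit that both alpha subunits share (chromosome 1, 150809713 to 150876599, read from the higher coordinate). Its ATOH8 peak, from 150876220 to 150877301, was the only one of the 5 start peaks with a midpoint upstream of the start, by 161.5 bp. The score was 127, rank 1058, above 78.5% of the list. The TCF3 peak of the region, from 150781044 to 150782128 with a score of 131, lay 28127 bp past the far end of ARNT and nearer to CTSK, the gene of cathepsin K, at 14622 bp. It was inside the pseudogene LOC100132571.

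EGLN1 encodes the main prolyl hydroxylase of HIF in most cells (chromosome 1, 231363756 to 231422287, read from the higher coordinate). Its ATOH8 peak, from 231421301 to 231422668, covered the start with a midpoint 302.5 bp inside the gene and had the lowest score of the 5 start peaks, 112, rank 1430, above 70.9% of the list. The TCF3 peak of the region, from 231337064 to 231337833 with a score of 79, lay inside EXOC8, an exocyst gene, 26307.5 bp past the far end of EGLN1. It ended 19 bp short of the annotated start of EXOC8 and 460 bp from that of SPRTN, a DNA repair protease gene on the other strand.

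EGLN3 encodes a prolyl hydroxylase whose transcription is strongly induced by hypoxia in many cell types (chromosome 14, 33924227 to 33951074, read from the higher coordinate). Its ATOH8 peak, from 33950315 to 33951057, had the highest score of the group, 164, rank 481, above 90.0% of the list. It lay wholly inside the gene, 17 bp from the start, with a midpoint 388 bp from it. None of the 250 bases before the start were in the peak. No TCF3 peak was listed within 50 kb, and the nearest, with a score of 54, was 87945 bp away.

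HIF1AN (chromosome 10, 100535943 to 100559998) had no listed peak of either factor within 50 kb. The nearest ATOH8 peak, from 100482145 to 100482796 with a score of 108, lay just beyond that limit at 53472.5 bp, inside WNT8B, a WNT ligand gene. The nearest TCF3 peak, with a score of 89, was 175635 bp away inside PAX2. SCD, the fatty acid desaturase gene named in the title of the series, ends 171117 bp before HIF1AN on the same chromosome.

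**Figure D2:**
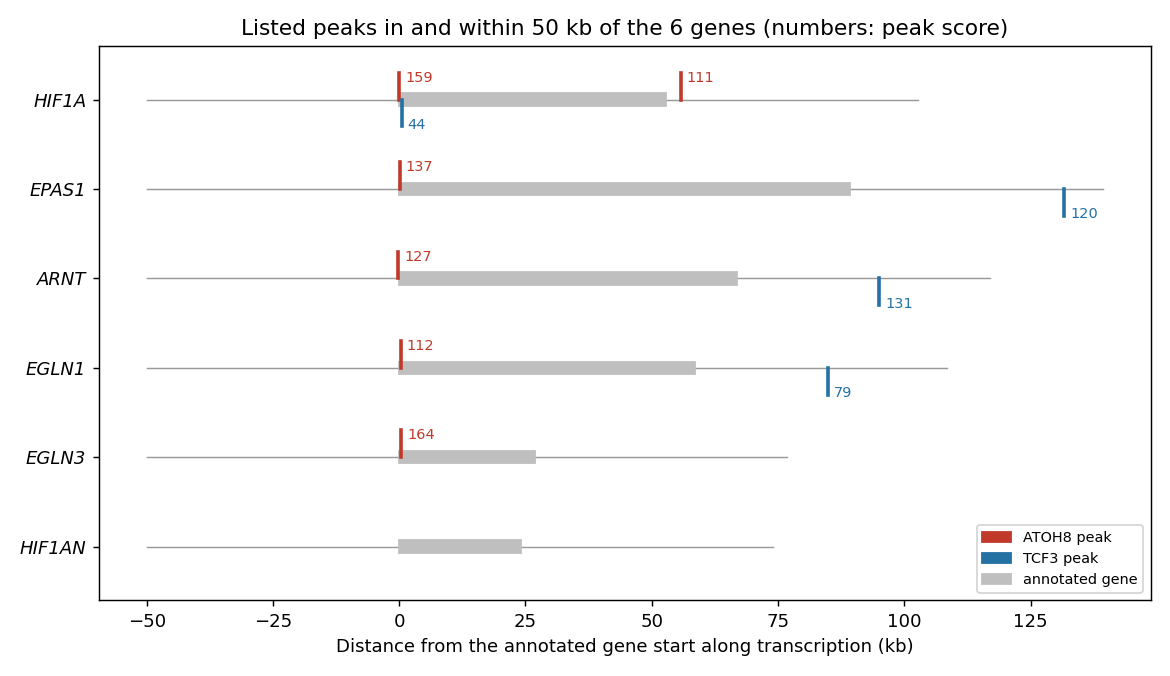
Midpoints of ATOH8 peaks (red, above the line) and TCF3 peaks (blue, below) across each gene (grey) and 50 kb on both sides, in kb from the gene start along transcription, with the peak score as a number. ATOH8 marks stand at the start of 5 genes, and all TCF3 marks but that of HIF1A stand 26307.5 to 42323.5 bp beyond the far end of the gene.

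Scores of the 5 ATOH8 start peaks ran from 112 to 164 with a median of 137. The 2472 ATOH8 peaks within 1 kb of any protein-coding gene start had a median of 86 and a middle 50% between 65 and 122, so 4 of the 5 lay above that range and EGLN1 lay within it. Among these start peaks, EGLN3 scored above 89.8%, HIF1A above 88.5%, EPAS1 above 81.2%, ARNT above 77.2% and EGLN1 above 69.3%. Peaks at 4 of the genes were also wide, from 1081 bp at ARNT to 1464 bp at EPAS1, where the median of start peaks was 735 bp, while the EGLN3 peak, the highest in score, had a width of 742 bp. The order of scores has no error estimate, so neighbouring values such as 159 and 164 cannot be told apart.

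**Figure D3:**
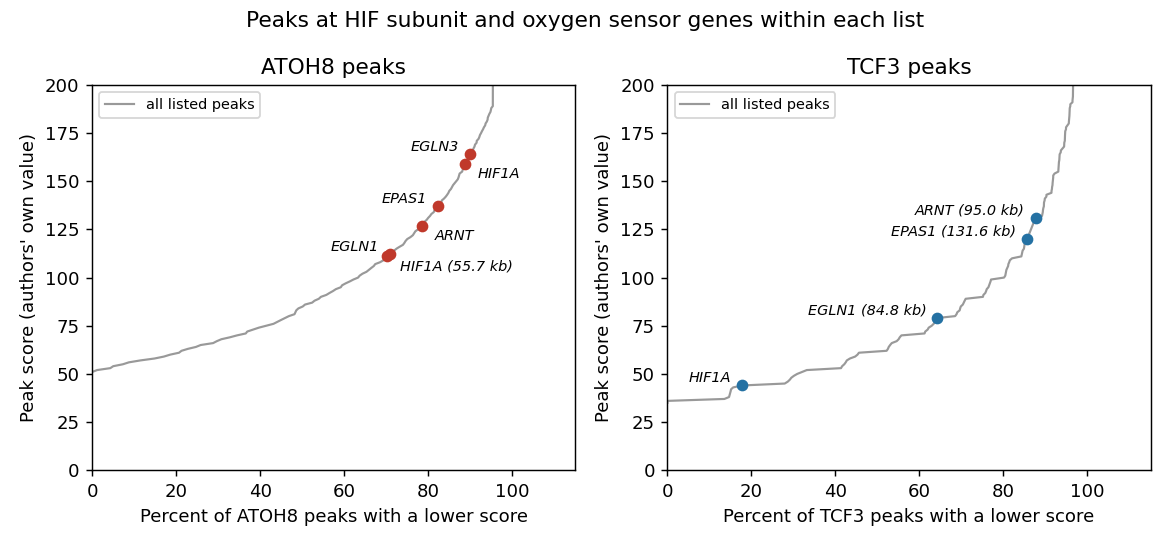
Score of each peak in or within 50 kb of the genes against the percent of its own list that scored lower, for ATOH8 (left) and TCF3 (right), with the whole list as a grey line and, for peaks over 1 kb from the gene start, that distance in parentheses. The ATOH8 points lie between 70.2 and 90.0% of the list, whereas the TCF3 peak at the start of HIF1A is at 17.8%.

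Counted over the wider window, 5 of the 6 genes had an ATOH8 peak in or within 50 kb, and 43.6% of all protein-coding genes did. For TCF3 the count was 4 of 6, with 53.7% of all genes, a share near the background. Within 5 kb of either gene end the counts were 5 for ATOH8 (22.7% of all genes) and 1 for TCF3 (28.5%). ATOH8 peaks covered the start at 4 of the 6 genes, against 11.0% of all genes. TCF3 peaks covered it at none of the 6, against 9.82% of all genes.

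Sharing between the lists was limited to HIF1A. Of the 6 ATOH8 peaks in or within 50 kb of the genes, 1 shared a base with a TCF3 peak, where 28.8% of all ATOH8 peaks did. Of the 4 TCF3 peaks, 1 overlapped an ATOH8 peak, where the share over all TCF3 peaks was 12.5%. Counts this small do not separate the genes from the rest of either list.

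Neighbouring genes were read for comparison. Another 9 protein-coding genes reached into the 50 kb windows, among them SNAPC1 beside HIF1A, SETDB1 and CTSS beside ARNT, and NDUFB8 beside HIF1AN. One of the 9, SEC31B beside HIF1AN, carried an ATOH8 peak at most 5 kb from one of its ends. That peak is the one inside WNT8B described above, which lies outside the 50 kb window of HIF1AN. EXOC8 and SPRTN, both beside EGLN1, had the same TCF3 peak within 5 kb. These counts of 1 and 2 of 9 are near the shares of all genes, 22.7% for ATOH8 and 28.5% for TCF3. All 6 ATOH8 peaks in the windows had HIF1A, EPAS1, ARNT, EGLN1 or EGLN3 as nearest protein-coding gene. Among the 4 TCF3 peaks, those near HIF1A and EPAS1 had that gene as nearest. Since 5 of the 6 ATOH8 peaks are the start peaks themselves, this adds little to the start counts. No share over all genes was counted for it.

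A list of 19 other genes of the pathway was read in the same way. ATOH8 peaks lay within 5 kb of a gene end at 9 of the 19 and TCF3 peaks at 4, where the shares of all protein-coding genes were 22.7% and 28.5%. The highest ATOH8 score per gene had a median of 96 over the 9 genes, with a range of 56 to 343. The TCF3 scores ran from 36 to 120 over the 4 genes.

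The paralogues of these genes varied, and with no test they are given as values. HIF3A, the gene of a further alpha subunit, had no peak of either factor within 5 kb. ARNT2, the second beta subunit gene, had overlapping peaks at an end, with a score of 60 for ATOH8 (above 18.6% of the list) and 89 for TCF3 (above 71.0%). EGLN2, the remaining prolyl hydroxylase gene of the EGLN family, had no ATOH8 peak within 50 kb and a TCF3 peak of score 36, among the lowest of the list, 3659.5 bp from its end.

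The ubiquitin ligase that destroys hydroxylated HIF is assembled from the products of VHL, ELOB, ELOC, CUL2 and RBX1. VHL had an ATOH8 peak of score 56, inside the gene and 1505 bp from an end. ELOC had ATOH8 peaks of scores 96 and 69, the second of them inside TMEM70, and RBX1 had an ATOH8 peak of score 77 across its start. CUL2 had no ATOH8 peak within 50 kb. It had a TCF3 peak of score 120, which lay inside CREM, a cyclic AMP responsive factor gene, 525 bp upstream of the CUL2 start. A further TCF3 peak, of score 36, lay inside CUL2 itself, 36955.5 bp from its start. ELOB had no peak within 5 kb.

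SIAH2, which encodes a ubiquitin ligase that destroys EGLN prolyl hydroxylases, had the highest ATOH8 score of the pathway list. Its peak from 150762594 to 150763657 on chromosome 3 covered the gene start with a midpoint 43.5 bp from it and a score of 343, rank 44, above 99.1% of the ATOH8 list. A TCF3 peak of score 70 overlapped it by 603 bp and also covered the start. SIAH1, its paralogue, had no peak of either factor within 50 kb.

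Genes for coactivators and regulators of HIF activity varied. CREBBP, a histone acetyltransferase that HIF recruits, had an ATOH8 peak of score 147 centred 464.5 bp upstream of its start, whereas EP300, its paralogue, had none of either factor within 50 kb. CITED2, which competes with HIF for these coactivators, had an ATOH8 peak of score 136 across its start and no TCF3 peak within 50 kb. HSP90AA1, a chaperone gene, had an ATOH8 peak of score 114 across its outer annotated start, which also lay in WDR20. Inside the gene, beyond 5 kb from an end, it had an overlapping pair of scores 130 for ATOH8 and 181 for TCF3. Whether this pair lies at an alternative start was not examined. SENP1, a protease gene, had an ATOH8 peak of score 57 at its start, which also lay in PFKM. P4HTM, OS9, USP20 and COMMD1 had no peak of either factor within 5 kb of an end.

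**Figure D4:**
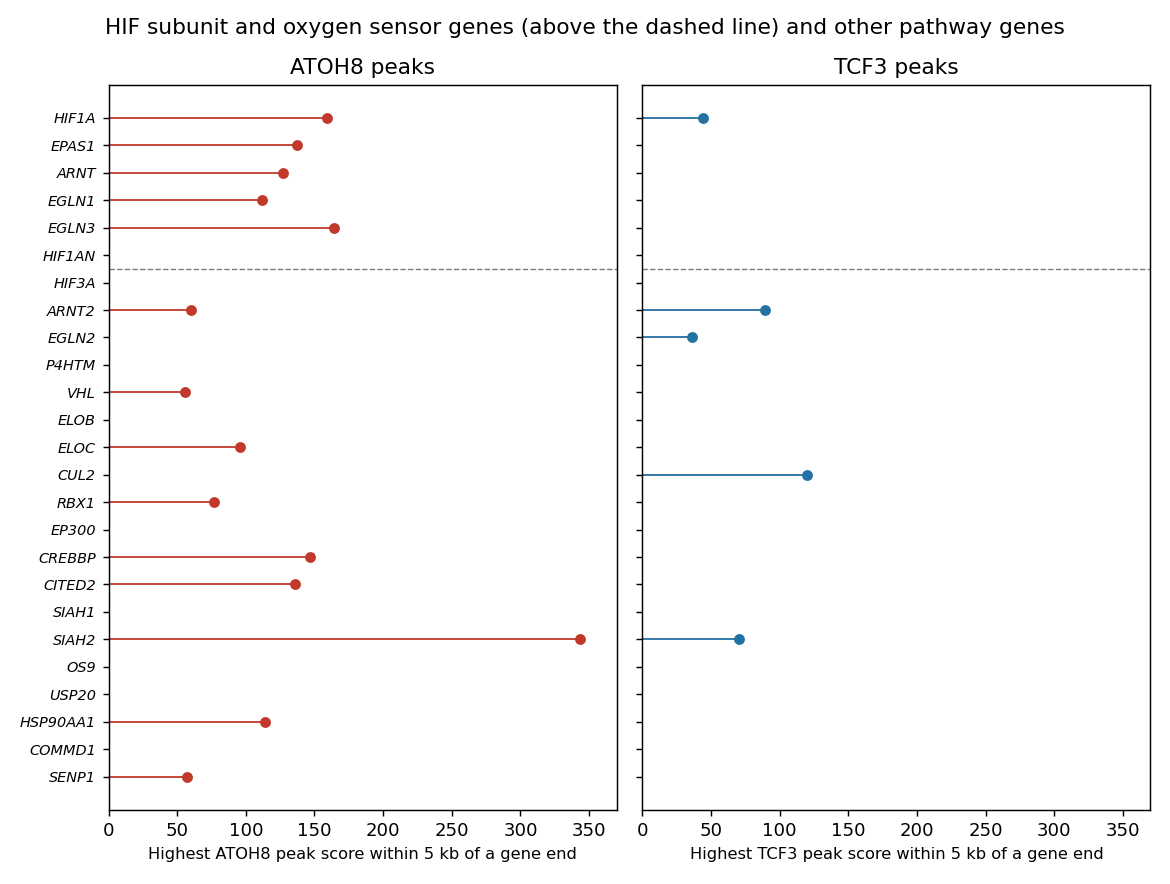
Highest peak score within 5 kb of a gene end for the HIF subunit and oxygen sensor genes (above the dashed line) and 19 other pathway genes (below it), for ATOH8 (left) and TCF3 (right), where no mark means no listed peak and scores are read only within a panel. SIAH2 stands highest for ATOH8 at 343, and HIF1A, ARNT2 and SIAH2 carry marks in both panels.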

How the data were processed

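DU145 chromatin was crosslinked for 10 min in 1% formaldehyde and sonicated, per the labels' protocols. The authors deposited 1 peak list for each immunoprecipitation, with a score per peak. The sources used here do not give the scale of this score, the aligner, the peak caller, its threshold or the use of the inputs. The input libraries were not analysed here. The build is hg38, per the submitters' processing notes, and positions are printed as in the lists, whose first base number is not given. Gene positions, strands and sequences came from RefSeq on GRCh38.p14, which numbers chromosomes 1 to 22 and X as hg38 does. The strand came from the promoter table, which held 15813 of 19974 protein-coding genes and 16 of the 19 pathway genes. Another gene of the pathway list is not reported here. The gene start is the outer end of the annotated gene on its strand, and alternative starts were not used.

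Distances run from peak midpoints, widths are end minus start, and a rank counts peaks of higher score plus 1. Overlap meant at least 1 shared bp. Motifs were searched on both strands in the 250 bases before each start. The 6 genes, the pathway list and the comparisons were chosen with earlier results of these data known, so shares of all genes stand in for tests. Named genes are the 6, the pathway genes with a peak within 5 kb of an end, and genes nearer to a peak than the gene in question. Pathway genes without a peak, neighbouring genes, and non-coding genes whose starts lie in a peak were named after their values were seen. Other windows, score limits and overlap rules made 32 alternatives. The scripts were tested on simulated data. All steps ran in Python. The versions were Python 3.11.15, numpy 2.4.6, pandas 2.3.3 and matplotlib 3.10.9.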

Additional observations from a re-analysis of the deposited data

How the results depend on the processing

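Of 32 alternatives, 22 left the count within 1.5 times its value and 10 moved it. The ATOH8 counts of 5 of 6 genes stayed at 5 or, with a window of 100 kb, came to 6, where 55.5% of all genes had a peak. That these counts did not fall was fixed in advance. The 5 start peaks have midpoints 39.5 to 388 bp from the start and scores of 112 to 164, where the list median is 84. The narrower windows and the score limits therefore could not remove them. The TCF3 count within 50 kb, 4 of 6, was 1 with a window of 20 kb, where 42.0% of all genes had a peak. It was 2 when only peaks with the gene as nearest protein-coding gene were kept, for which no share was counted. The TCF3 count within 5 kb of an end, 1 of 6, was 0 with the higher-ranked 50% of peaks (16.7% of all genes). It was also 0 with as many TCF3 peaks as ATOH8 peaks (14.7%), since the peak at HIF1A has a low score. The shared pair at HIF1A was counted as 0, for either factor, with a reciprocal overlap of 50%, with midpoints within 200 bp and with the higher-ranked 50% of both lists, since the TCF3 peak is much narrower, off centre and low in score. Under these rules, in that order, the shares over all peaks kept were 17.6%, 15.1% and 20.8% for ATOH8. For TCF3 they were 7.71%, 6.62% and 9.08%. No paired analysis was possible because each group has 1 library. Unknown depth, the gaps in listed scores and the lack of replicates limit every count.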

Other observations

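The short words found before HIF1A were also counted in all stretches of 250 bases before a protein-coding gene start that lay wholly inside a peak, as a description with no test. Of the 1562 stretches inside an ATOH8 peak, 20.1% held CAGCTG and 28.0% held CACCTG or CAGGTG. Of the 1486 stretches inside a TCF3 peak, 11.7% held CAGCTG and 16.8% held CACCTG or CAGGTG, and the shares over all 22140 stretches were 13.7% and 17.1%. The median G and C content was 73.2% inside ATOH8 peaks and 74.0% inside TCF3 peaks. Any CANNTG word stood in 59.0% of the stretches inside ATOH8 peaks and in 46.9% of those inside TCF3 peaks, against 58.1% of all. GCGTG or CACGC, also found before HIF1A, stood in 51.9% and 46.6%, against 38.2%. Of the E-box words absent before HIF1A, CAGATG or CATCTG stood in 5.57% and 4.98%, against 10.2%. CATATG stood in 0.576% and 0.673%, against 1.78%, and CACGTG in 10.3% and 9.35%, against 7.37%.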
